A study of Mus musculus with 32 samples.

Results

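The 10 genes described here serve the uptake, carriage, storage and export of iron in the liver and the hormonal control of these steps. They are Hamp and Hamp2 (hepcidin), Bmp6 (a ligand that raises hepcidin), Tfr2 and Tfrc (transferrin receptors), Trf (transferrin), Cp (ceruloplasmin), Slc40a1 (ferroportin), and Fth1 and Ftl1 (the ferritin chains). They were chosen by gene symbol, and all 10 were found in both count tables, among 41585 genes. Hepcidin, a peptide hormone made by hepatocytes from Hamp, binds ferroportin, the iron exporter of cells, and leads to its degradation, so that less iron enters the blood. Hepatocytes make more hepcidin when bone morphogenetic proteins from sinusoidal endothelial cells signal through SMAD proteins, and when interleukin-6 signals through STAT3. Within cells, iron regulatory proteins bind short hairpins in the mRNAs of ferritin, ferroportin and transferrin receptor 1, and so match iron storage and uptake to supply.

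Liver RNA was sequenced from WT and Cyp2b-null mice to compare a diet that causes steatohepatitis with a normal diet, in both genotypes and both sexes. All mice were C57Bl/6J: WT mice were bought from The Jackson Laboratory, and Cyp2b-null mice lacked Cyp2b9, Cyp2b10 and Cyp2b13 after CRISPR/Cas9 editing of the germ line. Mice were 10 weeks old when the diets began and ate them for 8 weeks: a normal chow diet (ND, 6.2% fat) or CDAHFD, a high-fat diet without choline (62% fat) and low in methionine (0.1%). The paper does not state whether these percentages are of weight or of energy, so the fat values of the diets may not share a scale. The 8 groups of 4 mice were ND-fed WT, CDAHFD-fed WT, ND-fed Cyp2b-null and CDAHFD-fed Cyp2b-null mice, each as females and as males. Genotype and the source of the mice cannot be told apart, since WT mice were purchased. Females and males were deposited in separate tables, so sex and table cannot be told apart either. The RNA came from whole liver, a mixture of hepatocytes, macrophages, endothelial, stellate and blood cells, and says nothing of iron content or protein.

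The 32 libraries held 2906411 to 10166959 counts on genes, and the median was 5368808. Expression is given in CPM (counts per 1e+06 counts, with TMM scaling within the table of each sex). Differences are log2 fold changes with their SE from the quasi-likelihood fit of edgeR, and called genes had a p under 0.05 after Benjamini-Hochberg adjustment over every gene tested. With a floor of 3 counts, the limit of detection lay between 0.295 and 1.03 CPM by library size alone, before TMM scaling. Such floors and the intervals below cover counting error only. All 10 iron genes passed the low-count filter in both sexes. A fit without this filter, given below among the alternatives, moved p-values far more than effects. For the difference between the sexes in the diet effect on Hamp2 in WT mice, edgeR gave 3.20 (adjusted p = 8.16e-27) without it. The main fit gave 3.22 (adjusted p = 0.116). Calls of the fit without the filter, and ends of ranges that rest on it, are therefore not read as support. Bmp6 had 11 to 91 counts per library, and Hamp2 had 8 to 4649.

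The deleted genes were examined first. Cyp2b13 had 470 to 2351 counts in WT female libraries and 0 or 1 in Cyp2b-null female libraries. Cyp2b9 had 683 to 3530 counts in WT females, 2 to 8 in Cyp2b-null females, 118 to 364 in CDAHFD-fed WT males and 2 to 18 in Cyp2b-null males. In ND-fed males, where Cyp2b9 is low in WT mice too (0 to 15 counts), Cyp2b10 gave 33 to 97 counts in WT mice, against 1 to 9 in Cyp2b-null mice. The genotype labels thus fit the counts of the deleted genes in the groups where WT mice express them. In CDAHFD-fed males, Cyp2b10 was low in both genotypes, with at most 7 counts in WT and 6 in Cyp2b-null mice.

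One library stood apart. CDAHFD-fed Cyp2b-null female replicate 3 had the lowest mean correlation with the rest of its group of any library (r = 0.954 across genes), and the most Fth1, Ftl1 and Hamp of its group. Its Kupffer cell markers summed to 572 CPM, against 504, 343 and 411 CPM in the other 3 libraries. Markers of red blood cells set it further apart from its group than these did, and their sums are not printed here. Diet effects on Hamp, Fth1 and Ftl1 in its group are given with and without this library. The part of Kupffer cell or red blood cell RNA in them was not tested.

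On CDAHFD, Hamp2 and Tfr2 fell in both genotypes and both sexes: 2 of the 10 genes were called in all 4 diet comparisons, where 13.7% of the 12978 genes tested in both tables were. In at least 1 of the 4 comparisons 9 of the 10 were called, all but Hamp, against 54.6% of those genes. Ferritin, transferrin and ceruloplasmin mRNAs had positive log2 changes in each of the 4 diet comparisons, and each was called in 1 or 2 of them; with scaling by library size only, Trf, Cp, Fth1 and Ftl1 were called in all 4, at larger values. By edgeR's test, 2 of the 10 genes were called in WT females (Hamp2, Tfr2), where 24.0% of all genes tested were called. In Cyp2b-null females 4 of 10 were called (Hamp2, Tfr2, Fth1, Ftl1), against 30.8% of all genes. In WT males 5 of 10 were called (Hamp2, Tfr2, Trf, Slc40a1, Fth1), against 32.8% of all genes, and in Cyp2b-null males 5 of 10 (Hamp2, Tfr2, Tfrc, Bmp6, Cp), against 37.3%. Libraries of the diets did not overlap for 5, 5, 3 and 4 of the 10 genes in WT females, Cyp2b-null females, WT males and Cyp2b-null males. Of all genes tested 25.8%, 30.6%, 28.4% and 36.8% did not overlap, and these shares stand beside each lack of overlap between diets given below. The members were chosen with results known, so these counts are not in themselves a result about iron genes. The median log2 change of the 10 genes was −0.14 in WT females, −0.38 in Cyp2b-null females, −0.08 in WT males and 0.01 in Cyp2b-null males. Over all genes tested the medians were −0.0021, 0.027, −0.023 and −0.0083. With scaling by library size only, the median over all genes was 0.32, 0.28, 0.37 and 0.36 in the same 4 comparisons, and the changes below are relative to a median near 0.

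**Figure D1:**
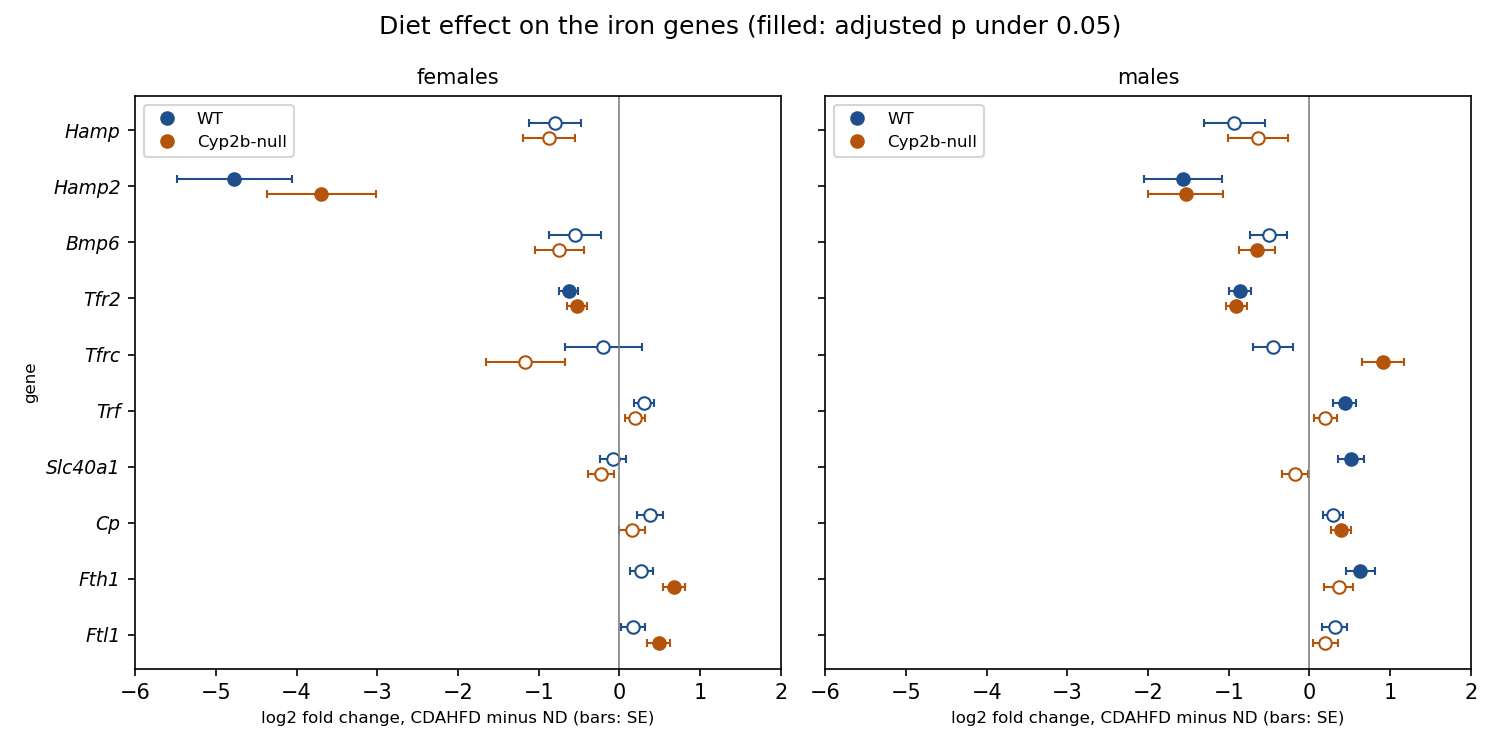
Log2 fold change (CDAHFD minus ND) of the 10 iron genes in females and males, with bars of 1 SE from the edgeR fit, WT in blue and Cyp2b-null in orange; filled points have an adjusted p under 0.05. Hamp2 lies farthest from 0, at −4.77 in WT and −3.69 in Cyp2b-null females, and Tfr2 is filled in all 4 comparisons.

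Hamp2 was the member that CDAHFD moved most. It is the paralog of Hamp in mice, and its peptide is not known to share the iron-lowering action of hepcidin. In WT females, Hamp2 stood at 349, 241, 1143 and 805 CPM on ND and at 12.5, 52.1, 23.8 and 6.12 CPM on CDAHFD. In Cyp2b-null females it stood at 473, 331, 549 and 205 CPM on ND and at 34.5, 36.8, 33.5 and 16.05 CPM on CDAHFD. Every CDAHFD-fed female library was below every ND-fed female library, although the ND-fed WT libraries themselves spread from 241 to 1143 CPM. The log2 change was −4.77 (SE 0.71, 27.3-fold lower, adjusted p = 0.000299) in WT females. In Cyp2b-null females it was −3.69 (SE 0.67, 12.9-fold lower, adjusted p = 0.00122). Both falls were called in every fit that left out a single library, with adjusted p-values up to 0.00159 in WT and 0.00504 in Cyp2b-null females. Diet effects of this size were measured in whole liver, where fewer cells of a type and less RNA per cell cannot be told apart.

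Males expressed far less Hamp2. ND-fed WT males had 3.44, 11.9, 15.6 and 12.2 CPM, and CDAHFD-fed WT males 4.11, 5.94, 2.88 and 2.10 CPM. ND-fed Cyp2b-null males had 10.5, 6.04, 19.7 and 8.50 CPM, and CDAHFD-fed Cyp2b-null males 2.21, 6.36, 4.36 and 1.62 CPM. The diets overlapped through ND-fed WT replicate 1, which lay within the CDAHFD-fed range, and through CDAHFD-fed Cyp2b-null replicate 2, which lay just above the lowest ND-fed library. These levels rest on few reads, 12 to 29 counts in CDAHFD-fed WT and 8 to 62 in CDAHFD-fed Cyp2b-null libraries. The fall was −1.56 (SE 0.48, adjusted p = 0.0192) in WT males and −1.53 (SE 0.47, adjusted p = 0.0151) in Cyp2b-null males. Single libraries decided both calls: the adjusted p was 0.0656 without ND-fed WT male replicate 3 or CDAHFD-fed WT male replicate 3, and 0.0594 without CDAHFD-fed WT male replicate 4. It was 0.0609 without ND-fed Cyp2b-null male replicate 3. With scaling by library size only it was 0.0588 in WT and 0.0553 in Cyp2b-null males. Over all alternatives it ranged from 1.54e-07 to 0.0656 in WT and from 8.43e-08 to 0.0609 in Cyp2b-null males.

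Hamp encodes the iron-regulating hepcidin, and its diet difference did not pass the test in any of the 4 comparisons. In WT females it stood at 1144, 617, 1074 and 628 CPM on ND and at 478, 372, 536 and 603 CPM on CDAHFD. In Cyp2b-null females the values were 1164, 684, 951 and 901 CPM on ND and 291, 502, 899 and 327 CPM on CDAHFD. All 4 CDAHFD-fed WT females lay below all 4 ND-fed WT females, while CDAHFD-fed Cyp2b-null replicate 3, at 899 CPM, lay among the ND-fed libraries. WT males had 418, 221, 495 and 297 CPM on ND and 307, 179, 134 and 132 CPM on CDAHFD. Cyp2b-null males had 185, 227, 339 and 491 CPM on ND and 161, 272, 141 and 222 CPM on CDAHFD, and the diets overlapped in males of both genotypes. The log2 differences were −0.80 (SE 0.33, adjusted p = 0.0916) in WT females and −0.87 (SE 0.33, adjusted p = 0.0546) in Cyp2b-null females. They were −0.93 (SE 0.37, adjusted p = 0.074) in WT males and −0.64 (SE 0.37, adjusted p = 0.204) in Cyp2b-null males.

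Whether Hamp was called turned on the settings and on single libraries. Without CDAHFD-fed Cyp2b-null female replicate 3, the difference in Cyp2b-null females was −1.31 (adjusted p = 0.00298, the lowest over the fits that left out 1 library, whose highest was 0.13), and without ND-fed Cyp2b-null female replicate 2 the adjusted p was 0.0464. With 15 libraries per sex, without the library that stood apart, Hamp in WT females had an adjusted p of 0.0265. In WT males the adjusted p was 0.0199 without CDAHFD-fed replicate 1 and 0.0467 without ND-fed replicate 2, it was 0.049 in a fit of the compared groups alone, and it reached 0.192 without another library. In Cyp2b-null males the difference was −0.33 without ND-fed replicate 4 (adjusted p = 0.53) and −0.28 with scaling by library size only (adjusted p = 0.543; 8.68e-05 to 0.543 over the alternatives). DESeq2 called Hamp in both female comparisons (adjusted p = 0.0284 in WT, 0.0136 in Cyp2b-null), a fit of the compared groups alone called it in WT females (0.02), a fit without the low-count filter called it in all 4 comparisons, and the range over the alternatives that kept all libraries was 1.06e-05 to 0.24 in WT and 8.13e-07 to 0.114 in Cyp2b-null females. Hepatocyte markers are given beside these values. The 5 hepatocyte markers Alb, Ttr, Apoa1, Cps1 and Cyp2e1, of which Alb was the most abundant and none was at 0, had 3 called lower on CDAHFD in WT females and 4 in each of the other 3 comparisons. Their sum in WT females was 130180, 194880, 156480 and 141550 CPM on ND and 106050, 90808, 98775 and 77691 CPM on CDAHFD. In Cyp2b-null females it was 155290, 138960, 168680 and 172430 CPM on ND and 106850, 96414, 119140 and 78007 CPM on CDAHFD. In CDAHFD-fed males the sums were 102370, 86013, 59080 and 70436 CPM in WT and 77108, 73823, 55766 and 83986 CPM in Cyp2b-null mice. On ND the male sums were 129520, 112590, 123090 and 126740 CPM in WT and 115890, 113720, 119370 and 106660 CPM in Cyp2b-null mice. The part of hepatocyte RNA in the hepcidin values was not tested.

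Hamp and Hamp2 together give the hepcidin gene transcripts of the liver, and the share of Hamp2 in them is given by group. Hamp2 made up 39.8% ± 16.5 (SD, n = 4) of their joint counts in ND-fed WT females, and 5.02% ± 5.02 in CDAHFD-fed WT females. Its share was 29.2% ± 7.76 in ND-fed and 6.43% ± 3.09 in CDAHFD-fed Cyp2b-null females. In males it stayed between 0.723% and 5.48% in all 16 libraries. The single ND-fed WT female libraries ranged from 23.4% (Wilson 95% confidence interval 22.5 to 24.4) to 56.2% (55.1 to 57.25), so counting error was small beside the spread between mice. The diet difference in share had an exact permutation p of 0.0286 in each female genotype, the smallest that 4 against 4 libraries allow (two-sided, adjusted p = 0.0953 over 10 comparisons). Between ND-fed WT females and males the adjusted p of this exact test was also 0.0953, and between CDAHFD-fed WT females and males it was 0.449. The summed CPM of both genes was 1500 ± 557 on ND and 521 ± 80.5 on CDAHFD in WT females, and 1314 ± 301 and 535 ± 282 in Cyp2b-null females, whose CDAHFD-fed replicate 3 had 933 CPM beside 326, 539 and 343 CPM (exact permutation p = 0.0286 for each, adjusted p = 0.0715 over 10 comparisons). In males the sums were 369 ± 122 and 192 ± 83.3 CPM in WT mice, and 322 ± 138 and 203 ± 60.7 CPM in Cyp2b-null mice, with overlapping libraries.

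**Figure D2:**
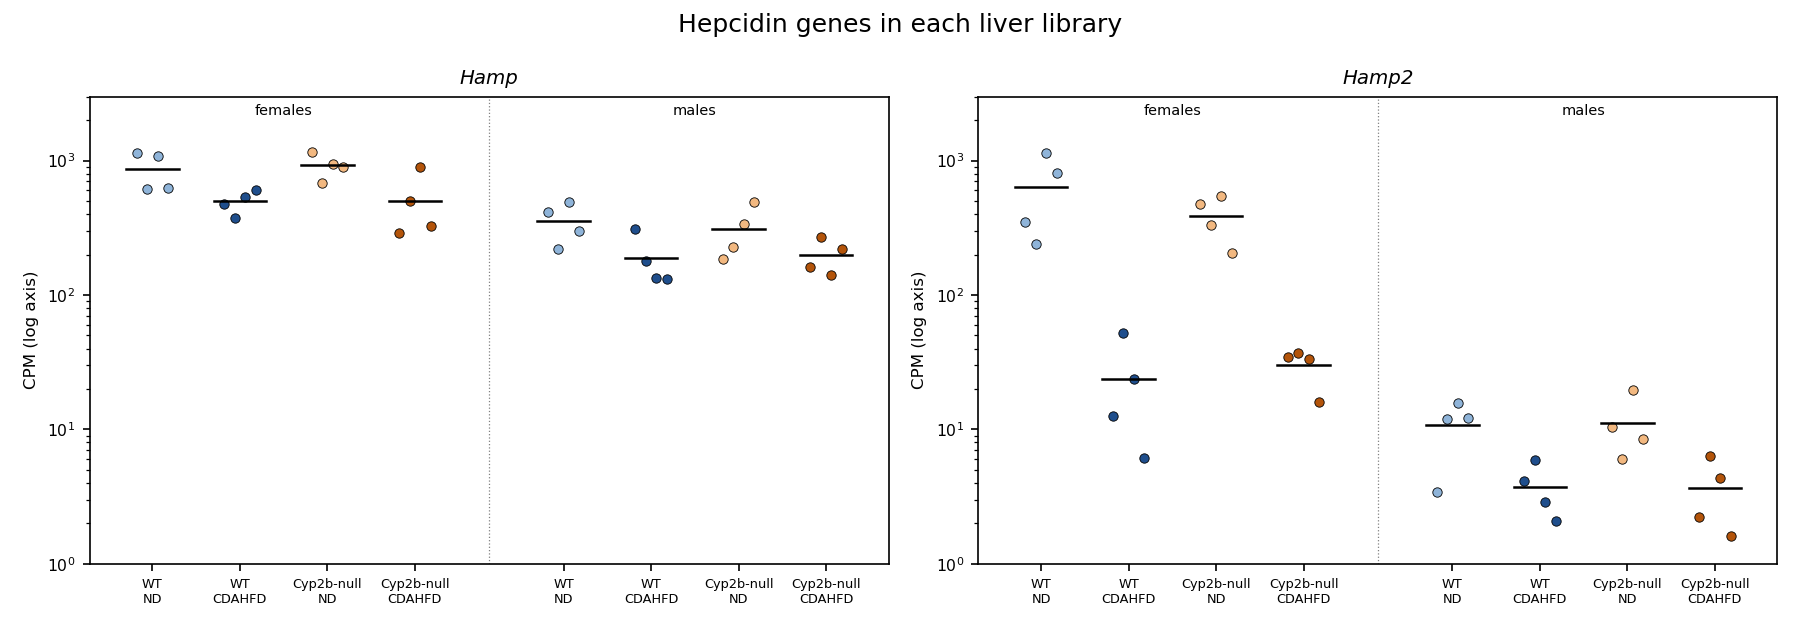
Hamp and Hamp2 in each liver library (points, CPM on a log axis) by diet, genotype and sex, with the group mean as a line (n = 4). The Hamp2 libraries of CDAHFD-fed females, from 6.12 to 52.1 CPM, all lie below those of ND-fed females, from 205 to 1143 CPM.

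The reads of these genes can be told apart only where their sequences differ. Hamp (chr7:30942368-30944029) and Hamp2 (chr7:30922372-30924181) lie 18186 bases apart on the minus strand (GRCm38.p6), and their transcripts are 94.6% identical over 410 aligned bases. The longest identical run is 87 bases. No stretch of 150 bases, the length of 1 read, is shared between the transcripts, while 16.6% of the 50-base stretches of Hamp occur in Hamp2. The counting of reads that fit more than 1 gene is not given in the sources used here, so an exchange of some reads between these genes was not tested. In males, Hamp2 had 8 to 116 counts per library beside 753 to 3673 counts of Hamp.

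The upstream sequences of Hamp and Hamp2 are shown because the genes are neighbours with near-identical promoters. The exact tests of the share above could not decide whether their diet effects differ in size. In females their p was 0.0286, the smallest that 4 against 4 libraries allow, and 0.0953 after adjustment. In both female genotypes every CDAHFD-fed library had a lower share of Hamp2 than every ND-fed library. RefSeq promoters (GRCm38.p6) were found for 8 of the 10 genes, all but Slc40a1 and Trf. Over 247 aligned bases before the start, the promoters of Hamp and Hamp2 were 91.9% identical, with 20 differing bases. The letters GGCGCC, the core of the element through which BMP signals act on hepcidin, and TTCNNNGAA, the core bound by STAT proteins, were searched on both strands. GGCGCC occurred in 9.59% of 32851 promoters (250 bases before the start), TTCNNNGAA in 7.02% and both in 0.368%. Hamp held both, at 109 and 97 bases before the start. Hamp2 held TTCNNNGAA at 94 bases, but at the place of GGCGCC it read GGCACC, a G4A difference counted from the first base of the motif with the Hamp base first. Among the other promoters, that of Tfrc held GGCGCC. Such matches are descriptions of letters, not of binding. The stretches from 150 to 31 bases before the start are printed on the transcribed orientation, minus strand of chr7:30944060-30944179 for Hamp and of chr7:30924212-30924331 for Hamp2, with motif matches in capitals.
Hamp: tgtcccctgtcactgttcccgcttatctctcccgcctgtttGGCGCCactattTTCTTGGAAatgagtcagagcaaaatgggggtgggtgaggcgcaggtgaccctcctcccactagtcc
Hamp2: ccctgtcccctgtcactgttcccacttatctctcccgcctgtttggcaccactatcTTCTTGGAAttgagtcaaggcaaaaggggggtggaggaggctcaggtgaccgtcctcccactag

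Bmp6 encodes the ligand through which hepatic iron raises hepcidin, and it had the lowest level per length of the 10 genes in 7 of the 8 groups. Bmp6 (chr13:38345716-38500314) ranged from 2.86 to 12.2 CPM in females and from 3.32 to 9.95 CPM in males. It fell on CDAHFD in Cyp2b-null males, where ND-fed libraries had 9.95, 7.83, 6.21 and 8.72 CPM and CDAHFD-fed libraries 6.96, 4.92, 5.10 and 4.04 CPM. Only CDAHFD-fed replicate 1 of these males overlapped the ND-fed range. The log2 change was −0.65 (SE 0.23, adjusted p = 0.0277). That call was lost in 5 of 8 fits leaving out a library of the comparison (ND-fed replicates 1 and 4, CDAHFD-fed replicates 2, 3 and 4; adjusted p 0.0577 to 0.11), without the low-count filter (adjusted p = 0.065) and with scaling by library size only (adjusted p = 0.377). The other 3 diet comparisons gave −0.55 (adjusted p = 0.243) in WT females, −0.74 (adjusted p = 0.067) in Cyp2b-null females and −0.51 (adjusted p = 0.101) in WT males. In Cyp2b-null females the adjusted p was 0.0221 without the low-count filter and up to 0.239 over the alternatives. The diets did not overlap in Cyp2b-null females or in WT males. Bmp6 overlaps Txndc5 and 4930579J19Rik, and the strand setting of the counting is not given in the sources used here.

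Sinusoidal endothelial cells are the known source of Bmp6 in liver. Their 5 markers (Stab2, Clec4g, Lyve1, Oit3, Pecam1; none at 0) had 2 called lower in WT females and 3 in Cyp2b-null females, and 1 called higher in WT males and 3 in Cyp2b-null males. In Cyp2b-null males they summed to 134, 115, 111 and 129.7 CPM on ND and to 153, 111, 165 and 212 CPM on CDAHFD, with Clec4g the most abundant on ND and Stab2 on CDAHFD. Bmp6 fell in Cyp2b-null males, whose endothelial marker sum was 123 ± 11.1 CPM on ND and 160.2 ± 41.5 CPM on CDAHFD. In females the marker sums were 192 ± 19.0 on ND and 154 ± 23.4 CPM on CDAHFD in WT mice, and 206 ± 24.4 and 156 ± 12.4 CPM in Cyp2b-null mice. In WT males they were 143 ± 33.3 and 137 ± 28.2 CPM. Their part in the Bmp6 values was not tested.

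Among 14 further genes of hepcidin control, 13 were tested. On CDAHFD 1 rose and 2 fell in WT females, 1 rose and 3 fell in Cyp2b-null females, 1 rose and 2 fell in WT males, and 2 fell in Cyp2b-null males. Of all genes 24.0%, 30.8%, 32.8% and 37.3% were called, so these counts are no result about the list. Hjv, which encodes the BMP co-receptor hemojuvelin of hepatocytes, rose from 54.6 ± 22.1 to 86.0 ± 12.3 CPM in WT females and from 66.7 ± 16.1 to 90.3 ± 11.4 CPM in WT males. Its log2 changes were 0.65 (adjusted p = 0.0284) and 0.43 (adjusted p = 0.0324), and 0.69 (adjusted p = 0.016) in Cyp2b-null females and 0.28 (adjusted p = 0.167) in Cyp2b-null males. Tmprss6, the protease that cleaves hemojuvelin and so restrains hepcidin, fell from 547 ± 58.5 to 430 ± 51.4 CPM in WT females (log2 −0.35, adjusted p = 0.0487) and from 628 ± 29.1 to 449 ± 35.6 CPM in WT males (−0.48, adjusted p = 0.00107). In Cyp2b-null males it fell by 0.58 (adjusted p = 0.00014), and the Cyp2b-null female value was −0.30 (adjusted p = 0.0793). Bmp2, a second BMP ligand of endothelial cells that was picked out after its values were seen, fell in females of both genotypes, by 1.10 (adjusted p = 0.000165) in WT and by 1.01 (adjusted p = 0.000273) in Cyp2b-null mice. In males its values were −0.43 (adjusted p = 0.169) and 0.00 (adjusted p = 0.993). The difference between the sexes in this diet effect was 1.03 in Cyp2b-null mice (adjusted p = 0.0483) and 0.70 in WT mice (adjusted p = 0.419).

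Genes that respond to these signals were examined next. Of 6 targets of BMP and SMAD signalling (Id1, Id2, Id3, Smad6, Smad7, Atoh8), 0 were called in WT females, Cyp2b-null females or WT males by edgeR. Of all genes 24.0%, 30.8% and 32.8% were called there. At an unadjusted p under 0.05 there were 1, 0 and 1 of the 6, against 34.3%, 41.1% and 42.2% of all genes. In Cyp2b-null males Smad6 rose by 0.61 (adjusted p = 0.0393) and Id2 fell by 0.64, where 37.3% of all genes were called. Of the 7 genes of the interleukin-6 and STAT3 pathway, 6 were tested. Socs3, a feedback inhibitor induced by STAT3, rose in WT females (1.28, adjusted p = 0.0182) and in Cyp2b-null females (1.31, adjusted p = 0.0104). In males its values were 0.80 (adjusted p = 0.261) and 0.44 (adjusted p = 0.544). Il6ra and Stat3 fell in Cyp2b-null females, making 3 of 6 called against 30.8% of all genes, Jak1 rose in Cyp2b-null males, and 0 of the 6 were called in WT males by edgeR. The 1, 0 and 1 called in WT females, WT males and Cyp2b-null males stand against 24.0%, 32.8% and 37.3% of all genes.

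Tfr2 encodes the second transferrin receptor, which hepatocytes use to sense iron-loaded transferrin. Tfr2 (chr5:137569822-137588081) stood at 459, 440, 390 and 472 CPM in ND-fed WT females and at 282, 257, 296 and 304 CPM in CDAHFD-fed WT females. Cyp2b-null females had 372, 468, 445 and 447 CPM on ND and 305, 293, 336 and 273 CPM on CDAHFD. WT males had 479, 605, 510 and 508 CPM on ND and 378, 255, 255 and 271 CPM on CDAHFD. Cyp2b-null males had 564, 484, 519 and 502 CPM on ND and 299, 274, 226 and 307 CPM on CDAHFD. In all 4 comparisons every CDAHFD-fed library lay below every ND-fed library, where the diets did not overlap for 25.8% to 36.8% of all genes. Within groups the coefficient of variation was between 6.57% and 20.5%. The falls were −0.63 (SE 0.12, adjusted p = 0.00046) and −0.52 (SE 0.12, adjusted p = 0.0023) in WT and Cyp2b-null females. In males they were −0.86 (SE 0.14, adjusted p = 3.02e-05) and −0.91 (SE 0.14, adjusted p = 1.27e-05). Each was called in every fit leaving out 1 library, while with scaling by library size only the fall in Cyp2b-null females was −0.27 (adjusted p = 0.0748; 2.8e-05 to 0.0748 over the alternatives). The same scaling gave −0.31 in WT females (adjusted p = 0.0484, the highest over the alternatives, from 2.36e-07), −0.48 in WT males and −0.55 in Cyp2b-null males (adjusted p = 0.00104 and 0.000232, the highest over the alternatives, from 1.04e-08 and 1.08e-09). Of the 5 hepatocyte markers, 3 were called lower in WT females and 4 in each other comparison. Among them, Alb had log2 changes of −0.77 and −0.72 in WT and Cyp2b-null females and −0.65 and −0.67 in males. The part of hepatocyte RNA in the Tfr2 values was not tested.

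Tfrc encodes transferrin receptor 1, the main route of iron uptake in most cells. Its levels varied widely among ND-fed mice. ND-fed Cyp2b-null females had 50.1, 12.8, 51.1 and 8.27 CPM, and CDAHFD-fed Cyp2b-null females 12.2, 13.0, 11.5 and 14.9 CPM. Replicates 1 and 3 on ND were high, while replicates 2 and 4 lay among or below the CDAHFD-fed values. The difference was −1.16 (SE 0.49, adjusted p = 0.0869). It was called without ND-fed replicate 4 (adjusted p = 0.00601) or ND-fed replicate 2 (0.0355) and not without any of the other 6 libraries (up to 0.264), and by DESeq2 (0.0392). In WT females, with 25.4, 31.2, 24.1 and 19.4 CPM on ND and 33.2, 16.98, 17.6 and 18.4 CPM on CDAHFD, the difference was −0.20 (SE 0.48, adjusted p = 0.811).

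In males, Tfrc (chr16:32608896-32632794) rose on CDAHFD in Cyp2b-null mice, from 9.19, 6.04, 9.32 and 14.6 CPM to 18.2, 15.5, 22.3 and 17.2 CPM. The ranges of the diets did not overlap, and the change was 0.91 (SE 0.27, adjusted p = 0.00964). It was called in all 8 fits that left out 1 library (adjusted p up to 0.0398). WT males had 22.6, 13.2, 32.5 and 34.3 CPM on ND and 19.0, 17.4, 15.3 and 23.6 CPM on CDAHFD, a difference of −0.45 (SE 0.25, adjusted p = 0.181). It had an adjusted p of 0.0193 without ND-fed WT replicate 2, the lowest of that group, and up to 0.434 without another library. On CDAHFD the WT and Cyp2b-null males had 18.8 ± 3.52 and 18.3 ± 2.89 CPM, and on ND 25.6 ± 9.78 and 9.79 ± 3.55 CPM. The test of the difference in diet effect between these genotypes gave 1.36 (SE 0.36, adjusted p = 0.467), which was not called. An edgeR fit without the low-count filter called it (adjusted p = 0.000176), and no other alternative did. The ratio of Tfr2 to Tfrc counts averaged 57.9 in ND-fed and 15.5 in CDAHFD-fed Cyp2b-null males (exact permutation p = 0.0286, adjusted p = 0.143 over 10 comparisons, n = 4).

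**Figure D3:**
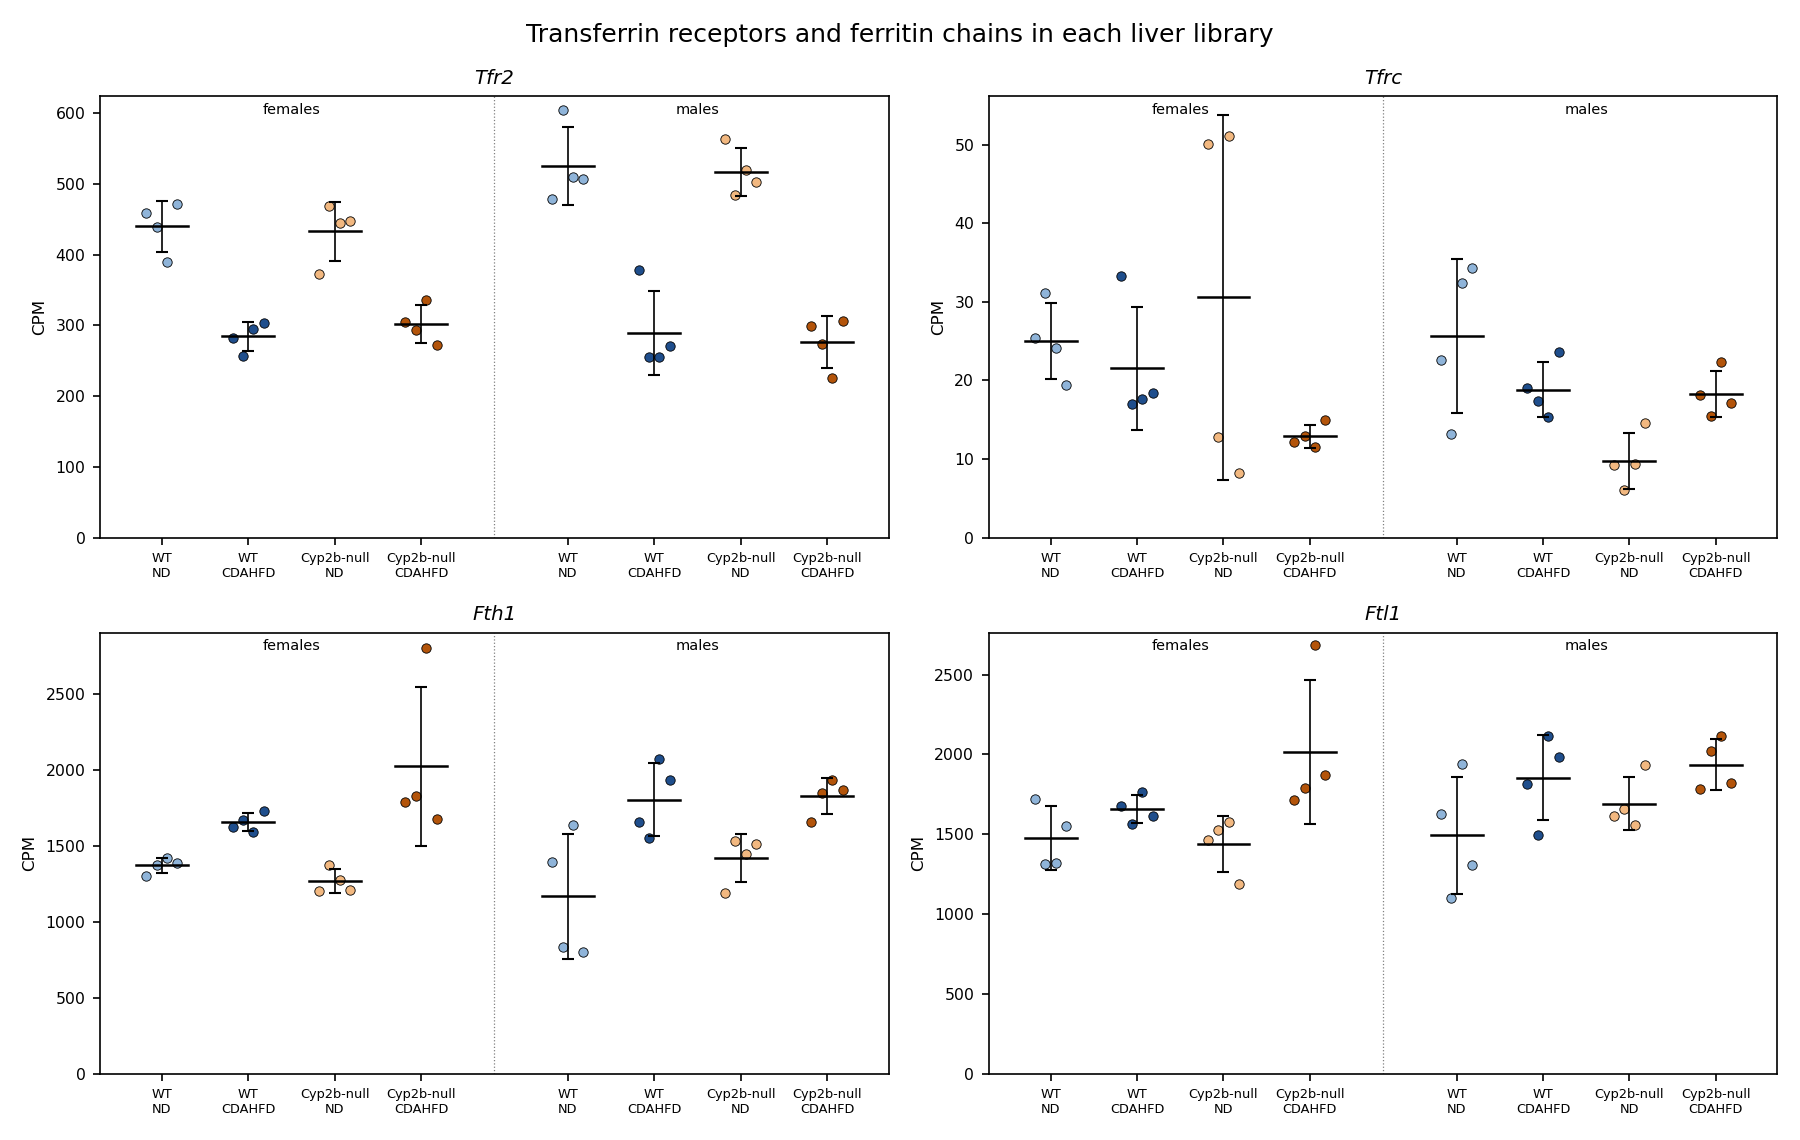
Tfr2, Tfrc, Fth1 and Ftl1 in each liver library (points, CPM) by diet, genotype and sex, with the group mean and SD (n = 4). Tfr2 separates the diets in all 4 comparisons, and CDAHFD-fed Cyp2b-null female replicate 3 is the highest library for Fth1 (2804 CPM) and Ftl1 (2683 CPM).

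Trf encodes transferrin, the carrier of iron in plasma, made by hepatocytes. It was the most abundant of the 10 genes, at 14401 to 26655 CPM over the 32 libraries. Trf (chr9:103208876-103230286) rose in WT males, from 15883, 15648, 16030 and 17440 CPM on ND to 25310, 24829, 18901 and 19068 CPM on CDAHFD, with no overlap. The change was 0.44 (SE 0.14, adjusted p = 0.0206). The call was lost without CDAHFD-fed WT male replicate 2 (0.37, adjusted p = 0.0747; the other 7 fits leaving out 1 library kept it) and without the low-count filter (adjusted p = 0.102). WT females did not overlap between diets either (17257 to 21331 against 21683 to 26655 CPM), at 0.30 (SE 0.13, adjusted p = 0.0913). Cyp2b-null mice gave 0.19 (adjusted p = 0.265) in females and 0.20 (adjusted p = 0.299) in males. Scaling by library size only raised these 3 uncalled values of Trf to 0.63 (adjusted p = 8.58e-05; up to 0.368 over the alternatives), 0.44 (0.00278; up to 0.632) and 0.56 (0.000173; up to 0.592). In WT females Trf was also called with 15 libraries per sex, at the same 0.30 (adjusted p = 0.0463). The part of hepatocyte RNA in the Trf values was not tested.

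Cp encodes ceruloplasmin, the copper ferroxidase of plasma that prepares exported iron for loading on transferrin. Cp (chr3:19956933-20009750) rose in Cyp2b-null males, from 1379, 1407, 1409 and 1302 CPM on ND to 1839, 1805, 1644 and 1902 CPM on CDAHFD, again with no overlap. The change was 0.39 (SE 0.12, adjusted p = 0.0168), and it was not called without ND-fed replicate 4 (0.36, adjusted p = 0.0529) or without the low-count filter (adjusted p = 0.0717). In WT males the value was 0.29 (adjusted p = 0.073), and it was called by DESeq2 (adjusted p = 0.0251; 1.31e-05 to 0.286 over the alternatives) and without CDAHFD-fed WT replicate 4 (adjusted p = 0.0264, up to 0.286 without another library). Females gave 0.38 (adjusted p = 0.0882) in WT and 0.16 (adjusted p = 0.493) in Cyp2b-null mice, and with scaling by library size only 0.72 (0.00103; up to 0.454 over the alternatives) and 0.41 (0.0442; up to 0.764). In WT females 1 CDAHFD-fed library, replicate 4, had 2451 CPM beside 1493, 1515.5 and 1472 CPM in the other 3, and 1579 CPM in the highest ND-fed library, and without CDAHFD-fed replicate 4 the difference was 0.17 (adjusted p = 0.454). Cp overlaps Hps3 on the genome, and reads of the shared part could be split or dropped by the counting.

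Slc40a1 encodes ferroportin, the exporter that hepcidin degrades, and in liver it is found on Kupffer cells, which recycle the iron of red blood cells, and on hepatocytes. Slc40a1 (chr1:45908070-45926532) rose on CDAHFD in WT males, from 107, 135, 118 and 97.7 CPM to 118, 224, 156 and 159.6 CPM. CDAHFD-fed replicate 1, at 118 CPM, lay within the ND-fed range, and replicate 2 was the highest. The change was 0.52 (SE 0.16, adjusted p = 0.0174). It was not called without CDAHFD-fed WT replicate 2 (0.33, adjusted p = 0.109) or without ND-fed WT replicate 4 (0.45, adjusted p = 0.0605), and it was 0.92 with scaling by library size only (adjusted p = 0.000148; 0.000148 to 0.109 over the alternatives). The other 3 diet comparisons were not called, at −0.08 in WT females, −0.23 in Cyp2b-null females and −0.18 in Cyp2b-null males (adjusted p = 0.785, 0.291 and 0.426). With scaling by library size only, the median over all genes was 0.32, 0.28 and 0.36 in the same order, farther from 0 than these values. Their signs are therefore given for TMM scaling only. Libraries of the other groups ranged from 123.6 to 256 CPM.

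Macrophage markers are given beside these values. Of 8 markers (Adgre1, Cd68, Csf1r, Itgam, Ccr2, Ly6c2, Trem2, Gpnmb), Trem2 was at 0 counts in all 32 libraries and the other 7 rose in all 4 diet comparisons. In WT males they summed to 55.4, 59.7, 76.6 and 53.0 CPM on ND and to 403, 737, 900.1 and 678 CPM on CDAHFD, and in Cyp2b-null males to 58.8, 59.5, 48.7 and 40.5 CPM and to 653, 595, 1131 and 898 CPM. Female sums were 118, 141, 85.1 and 88.8 CPM on ND and 345, 423, 552 and 422 CPM on CDAHFD in WT mice. In Cyp2b-null females they were 131, 109, 77.6 and 122 CPM and 493, 552, 455 and 392 CPM. Csf1r was the most abundant marker on ND and Gpnmb on CDAHFD. Slc40a1 was called higher in WT males only, and the test of the difference in its diet effect between male genotypes was not called (−0.70, SE 0.23, adjusted p = 0.679). Of the 5 Kupffer cell markers (Clec4f, Vsig4, Cd5l, Timd4, Marco; none at 0), 3 rose and 1 fell in males of each genotype, and their sum went from 163 ± 55.1 to 382 ± 111 CPM in WT and from 158 ± 22.4 to 378 ± 68.8 CPM in Cyp2b-null males. In females 1 rose and 2 fell in WT mice, and 1 rose and 1 fell in Cyp2b-null mice, with sums of 363 ± 83.8 and 370.1 ± 68.7 CPM, and of 365 ± 68.0 and 458 ± 101 CPM. Clec4f was the most abundant Kupffer cell marker on ND and Cd5l on CDAHFD. On CDAHFD, Cd5l alone averaged 240 and 247 CPM in WT and Cyp2b-null males, and 218 and 262 CPM in WT and Cyp2b-null females. The sums thus follow Cd5l more than the other markers there. The part of macrophage RNA in the ferroportin and ferritin values was not tested. Among further cell types, 4, 4, 4 and 5 of 6 stellate cell markers rose in WT females, Cyp2b-null females, WT males and Cyp2b-null males, and 1, 2, 1 and 1 of 4 cholangiocyte markers. Of 5 lymphocyte markers 1 passed the filter in females, called in Cyp2b-null females, and 0 passed it in males. Markers of red blood cells were examined too and included a called gene in each diet comparison. Their counts are not printed here, and the part of red blood cell RNA in the iron gene values was not tested.

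Fth1 and Ftl1 encode the heavy and light chains of ferritin, the protein shell that stores iron, and the heavy chain carries its ferroxidase activity. In WT females Fth1 (chr19:9980600-9985111) stood at 1306, 1374, 1424 and 1391 CPM on ND and 1630, 1674, 1593 and 1733 CPM on CDAHFD. In Cyp2b-null females it stood at 1208, 1378, 1279 and 1210 CPM on ND and 1793, 1829, 2804 and 1678 CPM on CDAHFD. The diets did not overlap in females of either genotype. Fth1 rose by 0.68 (SE 0.14, adjusted p = 0.000806) in Cyp2b-null females, and by 0.48 without replicate 3 of the CDAHFD-fed group (adjusted p = 0.00128; 0.000505 to 0.00397 over the fits leaving out 1 library). WT females gave 0.27 (SE 0.14, adjusted p = 0.174). That value was called, at the same 0.27, once the library that stood apart was left out of the common fit (adjusted p = 0.0374; 0.000573 to 0.418 over the alternatives).

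In males, Fth1 had 1396, 837, 1638 and 805 CPM in ND-fed WT and 1660, 1554, 2076 and 1939 CPM in CDAHFD-fed WT mice. ND-fed WT replicates 2 and 4 were low, and ND-fed WT replicate 3 lay within the CDAHFD-fed range. The rise was 0.63 (SE 0.18, adjusted p = 0.00954) and was called in all 8 fits leaving out 1 library (adjusted p up to 0.0443). Cyp2b-null males had 1194, 1536, 1451 and 1514 CPM on ND and 1661, 1849.5, 1936 and 1873 CPM on CDAHFD, which did not overlap, at 0.36 (SE 0.18, adjusted p = 0.122). A fit of those groups alone called it (adjusted p = 0.0153; 0.00769 to 0.278 over the alternatives), as did scaling by library size only (0.74, adjusted p = 0.00769).

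Ftl1 (chr7:45457944-45459886) was called in Cyp2b-null females, where it went from 1461, 1528, 1580 and 1186 CPM on ND to 1714, 1789, 2683 and 1871 CPM on CDAHFD. The rise of 0.49 (SE 0.15, adjusted p = 0.0151) rested in part on replicate 3: without it the value was 0.32 (adjusted p = 0.0603), and without ND-fed replicate 4 it was 0.40 (adjusted p = 0.0605). The other comparisons gave 0.16 (adjusted p = 0.465) in WT females, 0.31 (adjusted p = 0.125) in WT males and 0.20 (adjusted p = 0.345) in Cyp2b-null males. WT males had an adjusted p of 0.025 without ND-fed replicate 3, and up to 0.365 without another library. Scaling by library size only gave 0.48 (adjusted p = 0.00987; up to 0.698 over the alternatives), 0.71 (0.00252; up to 0.365) and 0.57 (0.0107; up to 0.532) for Ftl1 in these 3 comparisons. The ratio of Fth1 to Ftl1 counts was between 0.770 and 1.004 in the group means, and its largest diet difference, from 0.770 to 0.977 in WT males, had an exact permutation p of 0.0286 (adjusted p = 0.286 over 10 comparisons, n = 4), the smallest p that 4 against 4 libraries allow. Ferritin has processed pseudogenes whose sequence is close to that of the genes: Ftl1-ps1 was counted 730 to 4195 times per library, Ftl2-ps 66 to 666 times and Ftl1-ps2 35 to 204 times, so part of the Ftl1 reads may be listed under these names.

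Ferritin, ferroportin and transferrin receptor 1 mRNAs share hairpins called iron-responsive elements. They are printed because 4 of the 10 genes carry them and because iron status acts on these genes partly after transcription, which RNA counts do not show. A pattern of 17 bases was searched in whole transcripts: a C, 5 bases, the loop CAGTGN, and 5 bases pairing with the first 5, with G to T pairs allowed. It occurred in transcripts of 294 of 21877 protein-coding genes (1.34%), and in Tfrc, Slc40a1, Fth1 and Ftl1 among the members. Tfrc held 4 matches in its 3′ untranslated region, where iron regulatory proteins protect the mRNA, and the others held 1 each in the 5′ untranslated region, where the proteins block translation. Tfrc sites lie on the plus strand at chr16:32631225-32631241, chr16:32631604-32631620, chr16:32631669-32631685 and chr16:32631716-32631732. The site of Slc40a1 is on the minus strand at chr1:45925471-45925487, that of Fth1 on the plus strand at chr19:9982738-9982754 and that of Ftl1 on the minus strand at chr7:45459785-45459801 (GRCm38). Capitals mark the first 5 bases of the loop, the Tfrc matches are in the order of these positions, and a match describes letters only.
Tfrc a: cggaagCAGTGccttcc
Tfrc b: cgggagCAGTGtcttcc
Tfrc c: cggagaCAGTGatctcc
Tfrc d: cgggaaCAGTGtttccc
Slc40a1: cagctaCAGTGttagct
Fth1: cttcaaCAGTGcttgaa
Ftl1: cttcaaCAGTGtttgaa

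The proteins that read these hairpins are encoded by Aco1 and Ireb2. Of the 3 genes of iron sensing (Aco1, Ireb2, Fbxl5), 1 was called lower in WT females and 2 in each of the other 3 diet comparisons, where 24.0%, 30.8%, 32.8% and 37.3% of all genes were called in WT females, Cyp2b-null females, WT males and Cyp2b-null males. Aco1, the aconitase that becomes iron regulatory protein 1 when it loses its iron cluster, fell by 0.47 (adjusted p = 0.00979) and 0.53 (adjusted p = 0.00319) in WT and Cyp2b-null females and by 0.57 in both male genotypes (adjusted p = 0.000427 and 0.000309). Group means fell from 276 to 200.3 CPM in WT females and from 352 to 238 CPM in WT males. Ireb2, which encodes iron regulatory protein 2, was the other gene called, in Cyp2b-null females, WT males and Cyp2b-null males. Of the 4 members with a match, Tfrc was called in Cyp2b-null males, Slc40a1 and Fth1 in WT males, Fth1 and Ftl1 in Cyp2b-null females, and none of the 4 in WT females by edgeR.

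Of 17 further genes of iron uptake and handling inside cells, 13 were tested in females and 15 in males. On CDAHFD 4 rose and 1 fell in WT females, 4 rose and 4 fell in Cyp2b-null females, 3 rose and 3 fell in WT males, and 6 rose and 2 fell in Cyp2b-null males, against 24.0%, 30.8%, 32.8% and 37.3% of all genes called in the same order. Lcn2, which encodes the siderophore-binding lipocalin 2 of the acute phase, rose from 3.30 to 420.4 CPM in WT females and from 1.17 to 178 CPM in WT males (7.02 and 7.26, adjusted p = 2.23e-05 and 3.09e-13). In Cyp2b-null mice it rose by 6.99 and 7.47. Steap4, a metalloreductase, rose from 92.4 to 278 CPM in WT females and from 82.1 to 281 CPM in WT males (1.59 and 1.78, adjusted p = 8.83e-07 and 2.98e-09). Slc11a2, the divalent metal transporter DMT1, rose by 0.60 (adjusted p = 0.0205) in WT females and 0.71 (adjusted p = 0.000233) in WT males. Slc39a8, the transporter ZIP8, fell by 0.49 (adjusted p = 0.0354) and by 0.43 (adjusted p = 0.0255).

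Haem and haemoglobin handling supplies the liver with iron from red blood cells. Of 14 genes, all tested, 6 rose in each of the 4 diet comparisons, and 2, 2, 1 and 3 fell in WT females, Cyp2b-null females, WT males and Cyp2b-null males, against 24.0%, 30.8%, 32.8% and 37.3% of all genes called. Hmox1, the haem oxygenase that frees iron from haem, rose from 23.9 to 63.4 CPM in WT females and from 10.5 to 67.2 CPM in WT males (1.41 and 2.67, adjusted p = 1.08e-06 and 1.06e-09). Hpx and Hp, the plasma scavengers of haem and haemoglobin, rose by 0.92 and 1.29 in WT females and by 0.89 and 0.68 in WT males. Slc48a1 and Flvcr2, transporters of haem, rose by 0.49 and 1.47 in WT females and by 0.92 and 1.21 in WT males. Cd163, the haemoglobin receptor of resident macrophages, fell from 32.1 to 2.67 CPM in WT females and from 18.9 to 2.45 CPM in WT males (adjusted p = 0.000308 and 0.000157). In Cyp2b-null females and males all 6 of these genes were called too, with the same signs.

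In the main edgeR fit, none of the iron genes was called for genotype. An edgeR fit without the low-count filter called Hamp2 in ND-fed females, at −0.69 (adjusted p = 0.0068). The main fit gave nearly the same value, −0.71 (SE 0.60, adjusted p = 0.966). In ND-fed males the fit without the filter called Slc40a1 (adjusted p = 0.00205) and Tfrc. By edgeR's test, 0 of the 10 were called between Cyp2b-null and WT mice in ND-fed females (0.0529% of all genes called), CDAHFD-fed females (0.0302%), ND-fed males (0.0297%) or CDAHFD-fed males (0.0149%). At an unadjusted p under 0.05 there were 0, 1, 2 and 0 of the 10, beside 5.63%, 5.79%, 8.15% and 3.4% of all genes tested. DESeq2 called 0, 0, 1 and 0 of the 10, beside 0.174%, 0.0378%, 0.453% and 0.0297% of all genes. The gene that DESeq2 called was Tfrc in ND-fed males. WT replicates 1, 3 and 4 there, with 22.6, 32.5 and 34.3 CPM, were above all 4 Cyp2b-null values, 6.04 to 14.6 CPM, while WT replicate 2, with 13.2 CPM, overlapped them. The difference was −1.39 (SE 0.27, adjusted p = 0.0771), and DESeq2 gave an adjusted p of 0.000797, in a range of 7.37e-10 to 0.304 over the alternatives. It was called without WT replicate 2 (−1.61, adjusted p = 0.00126) and without Cyp2b-null replicate 4 (adjusted p = 0.0244), and the highest value was that without Cyp2b-null replicate 2. The other gene at an unadjusted p under 0.05 was Slc40a1, where ND-fed Cyp2b-null males (156, 181, 162 and 216 CPM) all lay above ND-fed WT males, by 0.64 (SE 0.16, adjusted p = 0.165). In CDAHFD-fed females the gene was Fth1 (0.29, adjusted p = 0.833), with replicate 3 of the Cyp2b-null group at 2804 CPM beside 1678 to 1829 CPM, and Tfrc there did not overlap (−0.73, adjusted p = 0.841). Of all genes 3.87% did not overlap between the genotypes in ND-fed males and 2.83% in CDAHFD-fed females.

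Whether the diet effect differed between genotypes was tested as an interaction. In females 0 of the 10 genes were called by edgeR or DESeq2, beside 0% of all genes by edgeR and 0.0151% by DESeq2. At an unadjusted p under 0.05 there were 0 of 10, beside 6.22% of all genes (823 of 13226). In males 0 of 10 were called by either tool, beside 0% of all genes by edgeR and 0.0594% by DESeq2. There 5.95% of all genes (801 of 13460) had an unadjusted p under 0.05. Tfrc and Slc40a1, given above, were the 2 members at an unadjusted p under 0.05. For Hamp2 the difference was 1.08 (SE 0.88, adjusted p = 0.821) in females and 0.03 (SE 0.66, adjusted p = 0.997) in males. In females an edgeR fit without the low-count filter called it (1.06, adjusted p = 0.00756), and no other alternative did. By the main fit, the larger fall in WT females was thus not shown to differ from that in Cyp2b-null females.

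Sex differences were examined in 1 fit to all 8 groups. Among ND-fed WT mice, 3 of the 10 genes were called, all lower in males (Hamp, Hamp2, Slc40a1), where 17.7% of all genes were called. Among CDAHFD-fed WT mice 2 were called, Hamp and Hamp2, both lower in males, against 11.0% of all genes. Hamp2 was lower in males by −5.82 on ND (SE 0.64, 56.6-fold, adjusted p = 4.04e-07), where in the scaling of this joint fit the highest male library had 15.9 CPM and the lowest female library 236 CPM. On CDAHFD the difference was −2.60 (SE 0.68, adjusted p = 0.0166), and in the same scaling the libraries overlapped, the lowest female at 5.94 CPM and the highest male at 6.04 CPM. That call was lost without CDAHFD-fed WT female replicate 2 (−1.87, adjusted p = 0.106) or CDAHFD-fed WT male replicate 3 (−2.47, adjusted p = 0.0529), and in a fit of the compared groups alone (adjusted p = 0.0715). Hamp was lower in males by −1.24 on ND (SE 0.37, adjusted p = 0.0217) and −1.34 on CDAHFD (SE 0.37, adjusted p = 0.0219), with no overlap on either diet. Leaving out ND-fed WT female replicate 1 or 3, or ND-fed WT male replicate 2 or 4, raised the adjusted p on ND to between 0.065 and 0.0869. On CDAHFD it was between 0.0572 and 0.0705 without WT female replicate 4 or WT male replicate 2, 3 or 4. Slc40a1 was lower in ND-fed males by −0.62 (SE 0.17, adjusted p = 0.00866), with no overlap, and on CDAHFD the value was −0.0031 (adjusted p = 0.993). Of all genes 18% did not overlap between WT females and males on ND and 17.5% on CDAHFD. All 5 Kupffer cell markers were also called lower in ND-fed WT males than in ND-fed WT females, and 0 of the 5 on CDAHFD by edgeR.

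The diet effect itself was compared between the sexes. In WT mice 0 of 10 genes were called by edgeR, beside 0.899% of all genes. At an unadjusted p under 0.05 there were 2 (Hamp2, Slc40a1), against 10.1% of all genes, and DESeq2 called 1 gene. That gene was Hamp2, whose fall was smaller in males by 3.22 (SE 0.93, adjusted p = 0.116; 0.011 by DESeq2, in a range of 8.16e-27 to 0.307 over the alternatives). Without CDAHFD-fed WT female replicate 2 edgeR called it too (3.95, adjusted p = 0.0405). In Cyp2b-null mice 1 of 10 was called, beside 3.37% of all genes: Tfrc, with a difference of 2.10 (SE 0.58, adjusted p = 0.0448), from −1.16 in females and 0.91 in males. At an unadjusted p under 0.05 there were 3 of 10, against 18.9% of all genes, and DESeq2 called 1. Besides Tfrc these were Hamp2 (2.21, adjusted p = 0.161) and Tfr2 (−0.36, adjusted p = 0.262). The edgeR call of Tfrc was lost in 12 of the 16 fits leaving out 1 library (adjusted p 0.0506 to 0.117). It was kept only without ND-fed Cyp2b-null female replicate 2 or 4, ND-fed Cyp2b-null male replicate 4 or CDAHFD-fed Cyp2b-null male replicate 2. It was also lost with a filter of 1 CPM in 4 libraries (adjusted p = 0.0518) and in a fit of the compared groups alone (adjusted p = 0.101). Without ND-fed Cyp2b-null female replicate 1 or 3 the difference was 1.70 or 1.73 (adjusted p = 0.117 and 0.0911), and without CDAHFD-fed Cyp2b-null female replicate 3 it was 2.04 (adjusted p = 0.0955).

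Levels of different genes were compared per kilobase of annotated exon. In ND-fed WT females the order of the means was Trf (5791 CPM per kilobase), Hamp (2111 ± 688), Ftl1 (1103 ± 148), Hamp2 (1089 ± 717), Fth1 (396 ± 14.3), Cp (139 ± 17.6), Tfr2 (102 ± 8.33), Slc40a1 (20.1 ± 2.55), Tfrc (4.04 ± 0.784) and Bmp6 (1.82 ± 0.620). The means of Ftl1, Hamp2 and Fth1 lay within 1 SD of Hamp2. On CDAHFD the place of Hamp2 in WT females was 7 instead of 4, with 40.5 ± 34.9 CPM per kilobase, between Tfr2 and Slc40a1. In ND-fed WT males the order was Trf (4895), Ftl1 (1114 ± 273), Hamp (873 ± 298), Fth1 (337 ± 119), Cp (158 ± 13.2), Tfr2 (121 ± 12.6), Hamp2 (18.5 ± 8.89), Slc40a1 (12.7 ± 1.79), Tfrc (4.15 ± 1.58) and Bmp6 (1.91 ± 0.0711). The means of Ftl1 and Hamp lay within 1 SD of each other, and that of Slc40a1 within 1 SD of Hamp2. In all 8 groups Tfr2 stood above Tfrc per kilobase.

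The genes whose pattern was most like that of Hamp were taken from 12955 genes by Pearson's r of log2 CPM, in the 16 female and the 16 male libraries separately. They were Dbi (0.873 in females and 0.840 in males), Gm14539 (0.830 and 0.836), Apoc3 (0.814 and 0.816), Cd302 (0.830 and 0.807) and Cpb2 (0.797 and 0.809). These libraries share diets and genotypes, so the values describe a joint pattern over groups and are given without a p.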

How the data were processed

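Whole-liver RNA was sequenced in 32 libraries, 4 for each of 8 groups. Per the labels and the study's methods, the authors used Trimmomatic for trimming, GSNAP (on GRCm38.p6) for alignment and featureCounts to count reads per gene, in versions not stated, and the deposited tables hold raw read counts for each sex. Genes were kept by filterByExpr (smallest count 10, smallest total 15), scaled by TMM and tested with the quasi-likelihood method of edgeR 4.0.16 in R 4.3.3, by 4 groups within each sex and by 8 groups for contrasts between sexes. Called means an adjusted p under 0.05. Ratios and shares were compared by exact permutation. The code was tested on simulated data. The alternatives were DESeq2 1.42.0, other scaling (RLE, library size only), other low-count filters, fits of the compared groups alone, a replicate block, leaving out each library, and 15 libraries per sex.

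All 10 members are named. From lists of hepcidin regulators, BMP targets, the interleukin-6 pathway, iron handling, iron regulatory proteins and haem handling, up to 6 genes called in both WT diet comparisons are named with values, besides the genes a small count rests on, which were chosen after their values were seen. Members and lists, cell type markers included, were chosen with earlier results of these data known. Promoters came from RefSeq, and hairpins from the transcripts of the GRCm38 annotation.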

Additional observations from a re-analysis of the deposited data

Results flagged for a closer look

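Within groups of 4 libraries, 9 of 80 combinations of gene and group held a library whose gap to the nearest other library exceeded Dixon's 95% critical share of the group's range. Chance gives about 1 in 20 groups. In females, Fth1 was 2804.3 CPM and Ftl1 2682.8 CPM in CDAHFD-fed Cyp2b-null replicate 3, against 1678 to 1829 and 1714 to 1871 CPM in the others of its group. Hamp2 was 16.045 CPM in replicate 4 of the same group, against 33.5 to 36.8 CPM. Tfrc was 33.234 CPM in CDAHFD-fed WT female replicate 1 (others 16.98 to 18.4 CPM). Cp was 2450.7 CPM in CDAHFD-fed WT female replicate 4 (others 1472 to 1515.5 CPM) and 1578.5 CPM in ND-fed WT female replicate 2 (others 1207 to 1268 CPM). In males, Tfr2 was 378.08 CPM in CDAHFD-fed WT replicate 1 (others 254.8 to 271 CPM), and Bmp6 was 3.3205 CPM in CDAHFD-fed WT replicate 4 (others 5.60 to 5.99 CPM). Slc40a1 was 123.55 CPM in CDAHFD-fed Cyp2b-null male replicate 2 (others 165 to 173 CPM).

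By edgeR's test, the diet effect on Tfrc in Cyp2b-null mice differed between the sexes by 2.096 on the log2 scale (adjusted p = 0.0448; 2.77e-11 to 0.121 over the alternatives). The call was lost in 12 of 16 fits leaving out 1 library, with the filter of 1 CPM in 4 libraries (0.0518), with the compared groups alone (0.101) and with 15 libraries per sex (0.121). The sexes were in separate tables.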

How the results depend on the processing

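None of 802 alternative values of single genes reversed direction, but these did not cover every gene in every comparison. Values were kept only for genes called in at least 1 fit of a comparison. The diet effects on Slc40a1 outside WT males and on Tfrc in WT females thus had no such values. With counts divided by library size only, the group means of both were higher on CDAHFD in these comparisons. Their negative signs therefore hold for TMM scaling only. Of 171 alternatives for the 22 called values, left-out libraries aside, 13 were no longer called. The number of iron genes called moved by over 1.5 times, or to or from 0, in 16 of 110 such alternatives, and the cause was not tested. In the diet comparison of WT females it was 2, but 6 with scaling by library size only and 5 with 15 libraries per sex (24.0%, 33.1% and 29.6% of all genes called), an alternative chosen after seeing the data (without replicate 3 of CDAHFD-fed Cyp2b-null females and replicate 4 of CDAHFD-fed Cyp2b-null males). Without a low-count filter it was 7 for diet in Cyp2b-null females (16.7% of all genes), 1 for genotype in ND-fed females (0.479%), 2 for genotype in ND-fed males (0.660%), 1 for diet by genotype in females (0.180%) and in males (0.369%), 1 for diet by sex in WT (1.70%) and 2 in Cyp2b-null mice (3.34%). DESeq2 gave 1 for genotype in ND-fed males (0.453%) and 1 for diet by sex in WT mice (1.54%). For diet by sex in Cyp2b-null mice it was 0 with the filter of 1 CPM in 4 libraries (2.77%), with the compared groups alone (3.78%) and with 15 libraries (1.71%), and for sex in CDAHFD-fed WT mice it was 1 with the compared groups alone (11.6%).

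Leaving out 1 library gave 3 to 7 genes for diet in WT males (3 without CDAHFD-fed WT replicate 2; 27.0% to 32.1% of all genes), 3 to 5 for diet in Cyp2b-null males (3 without ND-fed Cyp2b-null replicate 4; 30.9% to 34.9%), 0 to 1 for genotype in ND-fed males (0.0145% to 0.220%) and for diet by sex in WT (0.499% to 1.73%) and Cyp2b-null mice (1.57% to 4.00%), and 0 to 2 for sex in CDAHFD-fed WT mice (4.80% to 10.8%).

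With a replicate block, genotype in ND-fed males gave 1 gene (0.0520% of all genes), Tfrc (−1.37, adjusted p = 0.00696; 7.37e-10 to 0.304 over the alternatives), and Hamp was called for diet in Cyp2b-null females (−0.92, adjusted p = 0.0288; 8.13e-07 to 0.13 over the alternatives). Libraries of different groups share only a number: deviations of same-numbered libraries correlated at −0.156 to 0.288 in females and −0.343 to 0.337 in males, and 5 of 16 libraries in each sex were most like one of their own number. Direct contrasts between the sexes had no paired fit, since the sexes are in different tables; diet by sex had one with numbers paired within each sex, which left its counts at 0 in WT and 1 in Cyp2b-null mice (0.970% and 2.93% of all genes). Depth limits Bmp6 and, in males, Hamp2, with counts from 8 per library.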
